A study of Mus musculus with 4 samples.

Results

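The histone genes of mouse gastric organoids were examined in total RNA: 80 of the 45777 genes counted. The members were the protein-coding genes whose symbols follow the naming of the histone families, from H1f through H4f, and the rule uses symbols alone. By symbol, 65 were taken as clustered, replication-dependent genes and 15 as variant genes. RefSeq places 53 of the 65 clustered members on chromosome 13 and 10 on chromosome 3. H4f16 lies on chromosome 6 near the variant member H2afj, and H2bu2 on chromosome 11. H3f4, taken as a variant by its symbol, lies on chromosome 11 beside H2bu2.

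The series holds 4 bulk libraries of organoids, which are self-organizing epithelial cultures. The 2 Control libraries come from lines CPE and CPG, which carry the Cdh1 and Trp53 knockouts, per the series title. The 2 Smad4 Knockout libraries come from lines CPS1 and CPS4, which carry the Smad4 knockout in addition, so all 4 are labelled Cdh1 and Trp53 knockouts. All were kept for 2 days in Advanced DMEM/F12 with B27 and N2 and without serum or L-WRN conditioned medium before 0.5 ug of RNA went into a stranded library depleted of ribosomal RNA. How the alleles were made, which animals the lines came from and whether a line is 1 clone were not given in the sources used here. Every p below therefore sets a difference between the groups against the spread between these libraries only, and does not reach beyond these lines.

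Histones package DNA. An octamer of H2A, H2B, H3 and H4 forms the nucleosome core, and linker H1 binds where DNA enters and leaves it. Clustered histone genes are transcribed in S phase, when new chromatin is made, and most of their mRNAs end in a conserved stem-loop, bound by SLBP, in place of a poly(A) tail. Variant histones such as H2A.Z and H3.3 are made outside S phase as well, from polyadenylated mRNAs, and are placed by dedicated chaperones. A library that does not select poly(A) RNA can hold both kinds.

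The stem-loop is the feature that sets the clustered mRNAs apart, and a search for it was made in the GENCODE transcripts of GRCm38. The search looked for 6 stem bases starting with GG, the 4 bases TTTC and the reverse complement of the stem. It was found in 33 of 65 clustered members (50.8%), in 0 of 14 variant members with a transcript and in 42 of all 55450 genes (0.0757%). Many of these models end near the coding part, though some without a match are long, such as H2bc21 with 2620 bases. The pattern also takes no other loop and no mismatch in the stem. An absent match therefore does not show that the mRNA lacks a stem-loop. Examples from each class follow, written as DNA with 5 flanking bases and the stem and loop in capitals.
H1f2, chr13:23739507-23739532, plus strand: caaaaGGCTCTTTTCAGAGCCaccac
H2ac18, chr3:96246027-96246052, plus strand: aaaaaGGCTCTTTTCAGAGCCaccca
H2bc14, chr13:21722501-21722526, plus strand: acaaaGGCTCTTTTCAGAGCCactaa
H3c2, chr13:23752815-23752840, plus strand: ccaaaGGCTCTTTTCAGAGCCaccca
H4c4, chr13:23581945-23581970, plus strand: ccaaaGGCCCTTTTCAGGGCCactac
H4c2, chr13:23757361-23757386, plus strand: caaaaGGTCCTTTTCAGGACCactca
H1f2, H2ac18, H2bc14 and H3c2 carried the same 16 letters, whereas the H4 genes H4c4 and H4c2 had other letters in the stem.

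Promoters of the highest clustered H2B, H3 and H4 genes and of the highest variant are shown as examples. Whether promoter sequence has a part in the differences between libraries described below was not tested. Each holds the 250 bases before the RefSeq start (GRCm38.p6), 5′ to 3′ on the gene's strand, with matches in capitals. The letters searched were CCAAT (both strands, so ATTGG as well), TATAA (gene strand only) and the octamer ATTTGCAT (both strands), and none of the 3 lies within another.
H2bc18 promoter, chr3:96269450-96269699, plus strand: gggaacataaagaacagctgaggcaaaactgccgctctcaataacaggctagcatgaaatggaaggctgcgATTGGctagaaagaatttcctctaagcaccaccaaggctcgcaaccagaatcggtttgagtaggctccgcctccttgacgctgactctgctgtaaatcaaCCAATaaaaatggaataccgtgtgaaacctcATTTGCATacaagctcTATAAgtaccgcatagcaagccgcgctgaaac
H3c3 promoter, chr13:23745522-23745771, minus strand: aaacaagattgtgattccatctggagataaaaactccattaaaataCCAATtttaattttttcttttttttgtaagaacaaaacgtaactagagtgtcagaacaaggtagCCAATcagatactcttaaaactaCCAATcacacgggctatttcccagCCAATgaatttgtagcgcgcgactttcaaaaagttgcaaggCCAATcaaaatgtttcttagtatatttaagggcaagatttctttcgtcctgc
H4c4 promoter, chr13:23581318-23581567, plus strand: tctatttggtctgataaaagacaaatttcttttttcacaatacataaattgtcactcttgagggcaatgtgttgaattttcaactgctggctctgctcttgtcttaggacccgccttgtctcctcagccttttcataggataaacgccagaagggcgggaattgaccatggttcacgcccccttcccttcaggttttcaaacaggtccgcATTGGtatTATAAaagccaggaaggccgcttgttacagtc
H2afz promoter, chr3:137864237-137864486, plus strand: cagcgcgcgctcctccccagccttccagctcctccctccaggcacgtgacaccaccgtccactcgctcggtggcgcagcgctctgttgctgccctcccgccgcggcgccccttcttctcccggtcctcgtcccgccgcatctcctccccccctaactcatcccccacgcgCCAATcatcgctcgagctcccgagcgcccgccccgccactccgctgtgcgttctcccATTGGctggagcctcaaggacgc
A gene with several promoters was counted if any of them held the letters. Of the 60 clustered members with a promoter in the RefSeq table, 83.3% held CCAAT, against 37.5% of 27025 genes with a promoter. TATAA was found for 53.3% of these clustered members and 18.4% of all these genes, and the octamer for 21.7% and 1.81%. CCAAT was found for 17 of 17 clustered H2A and 16 of 16 clustered H2B genes but for 3 of 11 H4 genes (H4c1, H4c3 and H4c4). The octamer was found for 6 H2A and 7 H2B genes and for 0 clustered H1, H3 and H4 genes, and H3f3b was the variant that held it. Several H2A and H2B windows overlap on opposite strands, as for H2ac1 and H2bc1, so the same stretch can be counted for both genes. The clustered shares are therefore not drawn from independent promoters. The palindrome GTCTAGAC, a SMAD-binding sequence, was found for 2 of 60 clustered members (3.33%), against 0.2% of all genes with a promoter. These were Hist1h2an and Hist1h2bp, whose windows overlap on opposite strands. Both windows hold the same palindrome, so a single site was counted for both genes. A match is a stretch of letters, and binding was not measured here.

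Library totals ran from 85649781 to 99845702 counts. Smad4 was at 94.5 and 103 CPM (counts scaled to library size by TMM) in Control 1 and 2, against 54.4 and 52.9 CPM in the libraries labelled Smad4 Knockout 1 and 2, a log2 fold change of -0.88 (SE 0.10; edgeR adjusted p = 0.68). Reads over Smad4 were therefore lower in both knockout libraries but were still counted there. Control 1 and 2 had 30.7 and 26.0 CPM of Cdh1 and the knockouts 30.6 and 44.1 CPM, and Trp53 was at 4.87 and 6.98 CPM against 5.43 and 4.69 CPM, so transcripts of both genes were counted in all 4 libraries. Where in these genes the alleles differ is not known here, so gene counts do not check those labels. Of 14 gastric epithelial markers, the general epithelial genes Krt8 (3260 to 3582 CPM) and Epcam (879 to 1096 CPM) were high in every library. The mucous-cell genes Muc5ac (0.69 to 2.35 CPM) and Muc6 (0 to 0.163 CPM) and Gkn2 (0.143 to 1.21 CPM) were low. Cldn18, on the same list, stood at 248 to 255 CPM, Sox2 at 27.7 to 36.2 CPM and Gata4 at 18.3 to 26.2 CPM. None of the 14 was called by edgeR, and 4 had an unadjusted edgeR p under 0.05. Of all genes tested, 3.33% were higher at that threshold and 3.04% lower. The 4 were Tff1, Tff2 and Gkn1 with higher values in the knockouts and Muc6, near 0 throughout, with lower. Of 8 fibroblast markers, 7 averaged under 1 CPM, and the list summed to 2.65 and 3.70 CPM in the controls and 2.00 and 1.10 CPM in the knockouts. The 8 immune markers summed to 4.26 to 4.43 CPM and the 5 endothelial markers to at most 5.71 CPM. Of 8 male germ-line markers, 6 had 0 counts in all libraries (Dazl, Sycp3 and Stra8 among them) and the list summed to at most 0.194 CPM.

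Clustered histone mRNAs made up 1.27% and 1.02% of all counts in Control 1 and 2, against 1.12% and 1.37% in Smad4 Knockout 1 and 2. On the TPM scale, which divides by transcript length, their summed level was 38672 and 32563 in the controls against 36414 and 41411 in the knockouts (35617 ± 4320 and 38912 ± 3533, SD, n = 2 each). Control 2 was the lowest and Smad4 Knockout 2 the highest, and the groups overlapped. The 15 variant genes together reached 3184 and 2991 TPM in the controls and 3276 and 3119 TPM in the knockouts, and these groups overlapped as well. Summed clustered TPM was thus 12.1, 10.9, 11.1 and 13.3 times the summed variant TPM, in the same library order. With 2 libraries a group, the smallest two-sided p an exact permutation test allows is 0.33, and these sums were left untested. In bulk RNA, fewer cells in S phase and less histone mRNA per cell cannot be told apart.

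**Figure D1:**
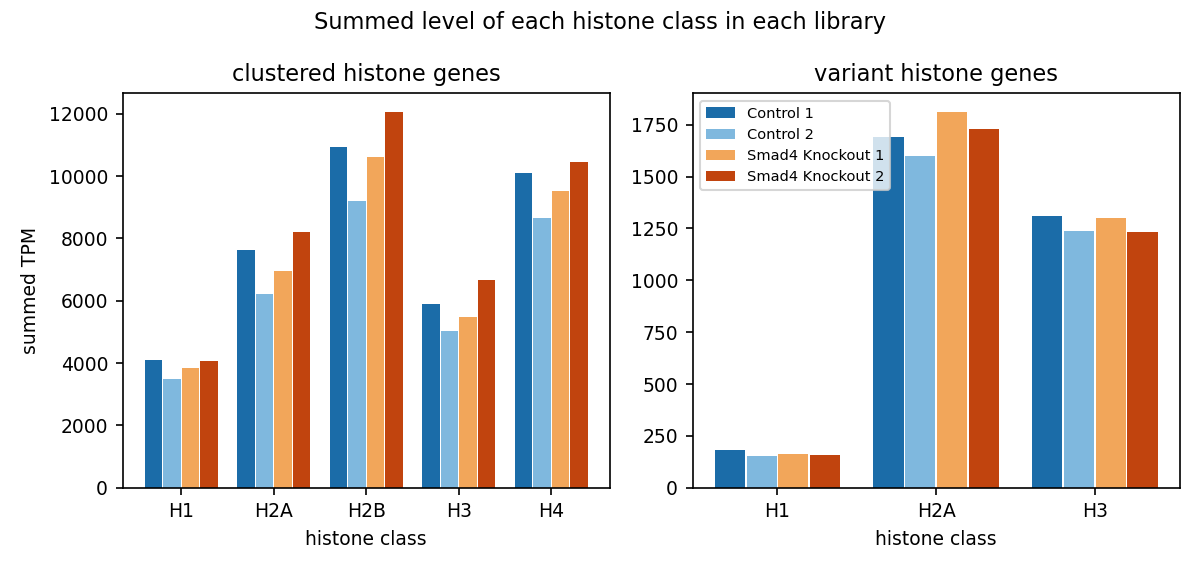
Summed TPM of each histone class (bars) in each of the 4 libraries, clustered members on the left and variant members on the right, with separate axes that start at 0. Of the member classes, clustered H2B is the tallest and reaches 12045 TPM in Smad4 Knockout 2, whereas variant H2A, mostly H2afz, is at most 1810 TPM.

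Within the clustered members the order of the summed class levels was the same in all 4 libraries: H2B (9192 to 12045 TPM), H4 (8643 to 10436), H2A (6226 to 8194), H3 (5022 to 6668) and H1 (3480 to 4098). H2c8, a histone gene outside the naming, was not in these sums. It stood at 1407 and 1207 TPM in the controls and 1250 and 1316 TPM in the knockouts. The order therefore holds for the members only. Each class had several strongly expressed copies, and 59 of the 65 clustered members averaged at least 100 TPM. The exceptions were H1f6, H2ac1, H2ac21, H2bc1, H2bc21 and H2bu2. Only 5 of the 15 variants reached that level: H1f0, H2afz, H2afx, H3f3a and H3f3b.

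**Figure D2:**
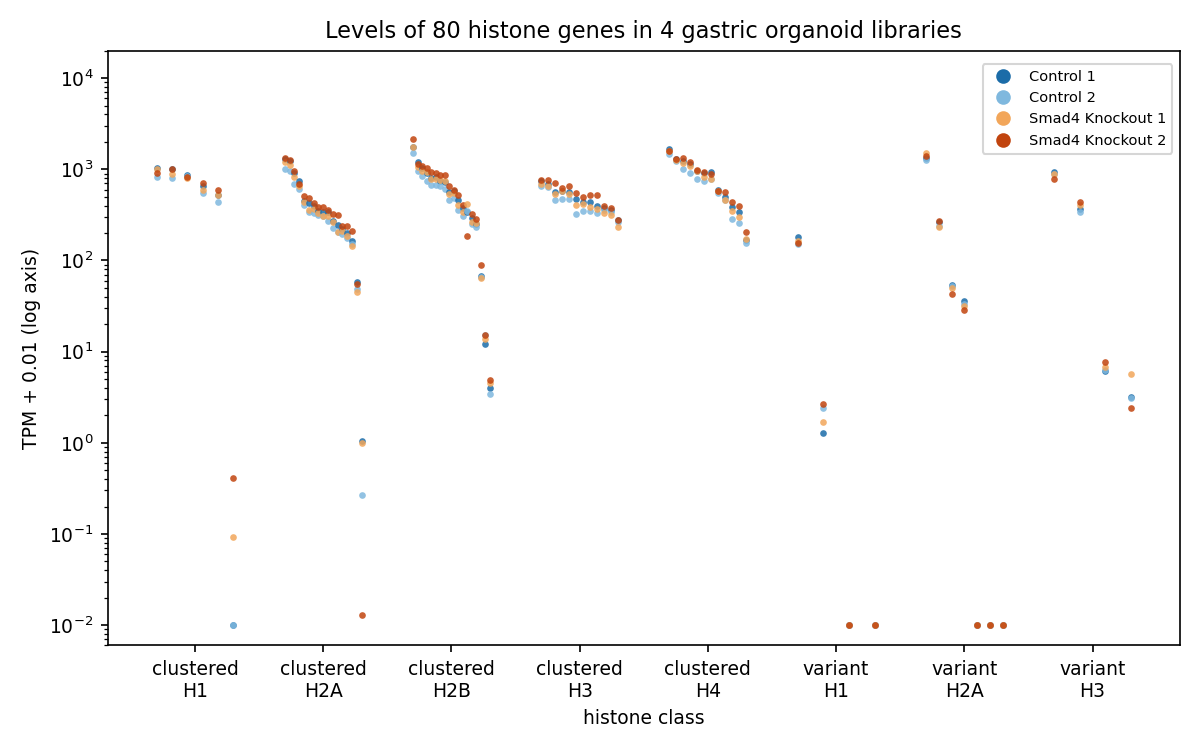
TPM plus 0.01 on a log axis for all 80 members, grouped by type and class, with 1 column of points per gene and 1 point per library. Most clustered genes lie between 100 and 2130 TPM and many overlap each other, H2ac1, H1f6 and H2bc6 vary visibly between libraries, and the bottom row holds the 5 variants with 0 counts and the 2 controls of H1f6.

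In edgeR's quasi-likelihood test 74 members could be tested, 64 clustered and 10 variant, and 0 passed an adjusted p of 0.05 in either direction. The background was the same: 0 of 18115 genes tested were called higher (0%) and 0 lower (0%). At an unadjusted p under 0.05 the count of members was again 0, while 603 genes were higher (3.33%) and 550 lower (3.04%). DESeq2 called 96 genes higher (0.53%) and 31 lower (0.171%), and 0 of them were members. Among the clustered members 52 of 64 had a log2 fold change above 0 (81.3%, against 49.5% of all genes tested), with a median of 0.11 against 0.00 for all genes. The fold change of the summed clustered counts was 0.10 (SE 0.16), smaller than its error.

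Leaving out 1 library turned the direction of that median. It was 0.30 without Control 1 and 0.26 without Smad4 Knockout 1, but -0.05 without Control 2 and -0.05 without Smad4 Knockout 2. The number of members above 0 then ran from 62 of 65 (without Control 1) to 16 of 64 (without Smad4 Knockout 2). The direction of the clustered genes between genotypes therefore rested on Control 2 and Smad4 Knockout 2.

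The 2 libraries of each genotype differed more than the genotypes did. Clustered CPM was lower in Control 2 than in Control 1 for 63 of 64 members, all but H2bc1, with a median log2 difference of -0.36 (all genes -0.02). It was higher in Smad4 Knockout 2 than in Smad4 Knockout 1 for 62 of 64, all but H1f2 and H2ac1, with a median of 0.34 (all genes 0.01). A single order, Smad4 Knockout 2 above Control 1 above Smad4 Knockout 1 above Control 2, was found in 42 of 64 clustered members and in 1280 of all 18115 genes (7.07%). For variants the medians of the same differences were -0.16 and 0.01, and 0 of the 10 variants tested had that order.

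**Figure D3:**
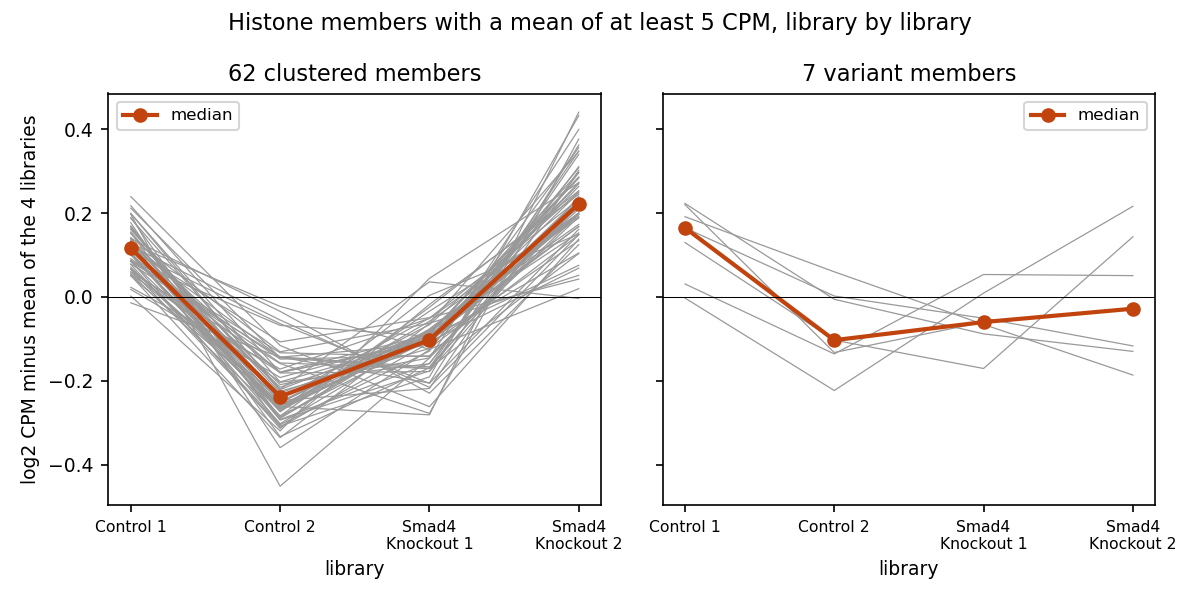
Each grey line is 1 member with a mean of at least 5 CPM, drawn as log2 CPM minus its own mean over the 4 libraries (vertical axis), and the red line is the median. The median of the 62 clustered members is lowest in Control 2 and highest in Smad4 Knockout 2. Of the 64 tested, 49 were lowest in Control 2 and 52 highest in Smad4 Knockout 2, and the 7 variants spread in both directions.

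Clustered members are not independent measurements, since near-identical copies can share reads, and the sources used here do not say how such reads were counted. Of all 100-base windows in a clustered member's transcript, a median of 65.3% occurred in no other gene, against 99.3% for variants. H2ac18 and its neighbour H2ac19 on chromosome 3 had 11.7% and 0% such windows, and their levels were 1292 and 1221 TPM in Control 1 and 1348 and 1276 TPM in Smad4 Knockout 2. Among the 21 tested clustered members with at least 80% private windows, 21 were lower in Control 2 than in Control 1 and 19 were higher in Smad4 Knockout 2 than in Smad4 Knockout 1. Their medians were -0.36 and 0.36 for those differences and 0.14 for knockout over control. The differences were thus of like size in members whose transcript models share few windows with other genes. Some of these models run far past the stem-loop, such as H2ac6 with 2010 of 2482 bases after it, and also H4f16 and H2bc9. Private windows there can lie outside an mRNA that ends at the stem-loop. This subset therefore cannot decide how shared reads bear on the pattern.

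Some other measures of the libraries followed the histone pattern in part. The 50 S phase genes summed to 5680 and 5312 CPM in the controls and 5508 and 5815 CPM in the knockouts, the same library order at a smaller size. Ribosomal protein genes took 6.79%, 5.98%, 6.43% and 6.74% of counts, lowest in Control 2 as well but highest in Control 1. Mitochondrial genes took 0.941%, 1.18%, 0.954% and 1.48%, a different order, with Control 1 lowest. The part of these measures in the histone pattern was not tested.

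Among linker histones, H1f2, H1f3 and H1f4 were the most abundant. H1f2 stood at 1031 and 831 TPM in the controls and 1019 and 923 TPM in the knockouts, with overlapping groups and a log2 fold change of 0.02 (SE 0.15). H1f3 was at 0.02 (SE 0.17) and H1f4 at -0.11 (SE 0.11), the smallest p downward among clustered members. H1f0, the replacement linker of slowly dividing cells, was at 180 and 151 TPM in the controls and 163 and 155 TPM in the knockouts, and H1f10 was at 1.28 to 2.68 TPM. The testis linker H1f6 had 0 and 0 counts in the controls against 4 and 18 in the knockouts, too few to test. H1f7 and H1f8, linkers of spermatids and oocytes, had 0 counts in every library, where a count of 0 allows up to 3 counts, for counting error only.

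Among core clustered genes, H2bc18 (chr3:96269700-96270192) was the highest of all members at 1757 and 1517 TPM in the controls and 1751 and 2130 TPM in the knockouts. Smad4 Knockout 2 stood above the rest, the groups overlapped in CPM and the log2 fold change was 0.21 (SE 0.17). The H2A gene H2ac18 (chr3:96245497-96246052) stood at 1292 and 1009 TPM in the controls and 1199 and 1348 TPM in the knockouts (0.11, SE 0.18), and H2ac19 gave the same fold change. H2bc3, in the chromosome 13 cluster, differed by -0.01 (SE 0.16).

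H2bc21 was the single clustered member of 64 whose groups did not overlap in CPM, where 36.9% of all genes tested did not overlap (18.2% higher and 18.6% lower). It is a weakly expressed H2B gene on chromosome 3, at 6.81 and 5.45 CPM in the controls and 7.01 and 8.21 CPM in the knockouts, and its log2 fold change was 0.31 (SE 0.21; edgeR adjusted p = 0.88). H2bc4, at 244 and 193 CPM in the controls and 231 and 280 CPM in the knockouts, had 0.23 (SE 0.16). H2bc6 stood at 211 and 162 CPM in the controls and 195 and 259 CPM in the knockouts (0.29, SE 0.19), but its TPM was 342 and 349 against 414 and 186. The highest library by counts was thus the lowest by TPM, and its fold change on the log2(TPM + 1) scale was -0.31. Its RefSeq span, chr13:23583670-23621124, is far longer than that of a typical clustered gene, and its direction depended on the unit.

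The highest H4 genes differed by less than their error. H4c4 (chr13:23581568-23581969) stood at 1665 and 1473 TPM in the controls and 1586 and 1598 TPM in the knockouts, and H4c3 at 1293 and 1243 TPM in the controls and 1254 and 1312 TPM in the knockouts. Both fold changes were -0.02 (SE 0.12 and 0.11). Of the H3 genes, H3c3 (chr13:23745042-23745521) stood at 745 and 663 TPM in the controls and 695 and 768 TPM in the knockouts (0.02, SE 0.14), with H3c2 at 0.05 (SE 0.15). The smallest p downward among clustered genes, besides H1f4, belonged to H3c15 (-0.10, SE 0.15) and the weakly expressed H2ac21 (-0.12, SE 0.20), both in the chromosome 3 cluster.

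Genes for the proteins H3.1 and H3.2, made in S phase, and H3.3, made throughout, were compared as shares of their joint TPM. H3.3 (H3f3a and H3f3b) had 18.0% and 19.6% in the controls against 19.1% and 15.5% in the knockouts. H3.2 had 53.3%, 54.6%, 52.6% and 54.0%, and H3.1 had 28.6%, 25.8%, 28.4% and 30.5%. The H3.3 share was lowest in Smad4 Knockout 2, the library with the most clustered histone RNA, and the groups overlapped for all 3 proteins.

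The variants moved in different directions. H3f3a and H3f3b encode the same H3.3 protein from chromosomes 1 and 11. H3f3a stood at 258 and 222 CPM in the controls and 260 and 301 CPM in the knockouts, both knockout libraries above both controls (0.23, SE 0.13; edgeR adjusted p = 0.85). H3f3b stood at 1191 and 1064 CPM in the controls and 1026 and 980 CPM in the knockouts, with both knockouts below (-0.17, SE 0.10; edgeR adjusted p = 0.86). Neither passed the test, and H3f3b was the more abundant by TPM in all 4 libraries (782 to 930, against 340 to 440).

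H2A.Z is encoded by H2afz and by H2afv, which makes the form H2A.Z.2. H2afz (chr3:137864487-137866922), the highest variant, stood at 920 and 819 CPM in the controls and 934 and 932 CPM in the knockouts (0.10, SE 0.10), and H2afv at 56.9 and 51.9 CPM in the controls and 47.6 and 43.8 CPM in the knockouts. H2afv had the smallest p of all 74 members (log2 fold change -0.25, SE 0.11; edgeR adjusted p = 0.81). H2afj, the H2A.J gene, stood at 42.4 and 36.2 CPM in the controls and 34.2 and 33.2 CPM in the knockouts (-0.22, SE 0.13). H2afx, whose product is phosphorylated at DNA breaks, had overlapping groups (-0.02, SE 0.15).

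In all, 3 variants did not overlap upward (H2afz, H3f3a and H3f3c) and 3 downward (H2afj, H2afv and H3f3b), 6 of 10 tested against 36.9% of all genes. The median fold change of the 10 was 0.04, with 5 above 0, and that of their summed counts was -0.03 (SE 0.10). H3f3c, at 4.04 and 3.96 CPM in the controls and 4.10 and 5.08 CPM in the knockouts, shares most of its windows with other genes (43.3% private). H2afb1, H2afb2 and H2afb3, the testis H2A.B genes on the X chromosome, had 0 counts in every library.

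**Figure D4:**
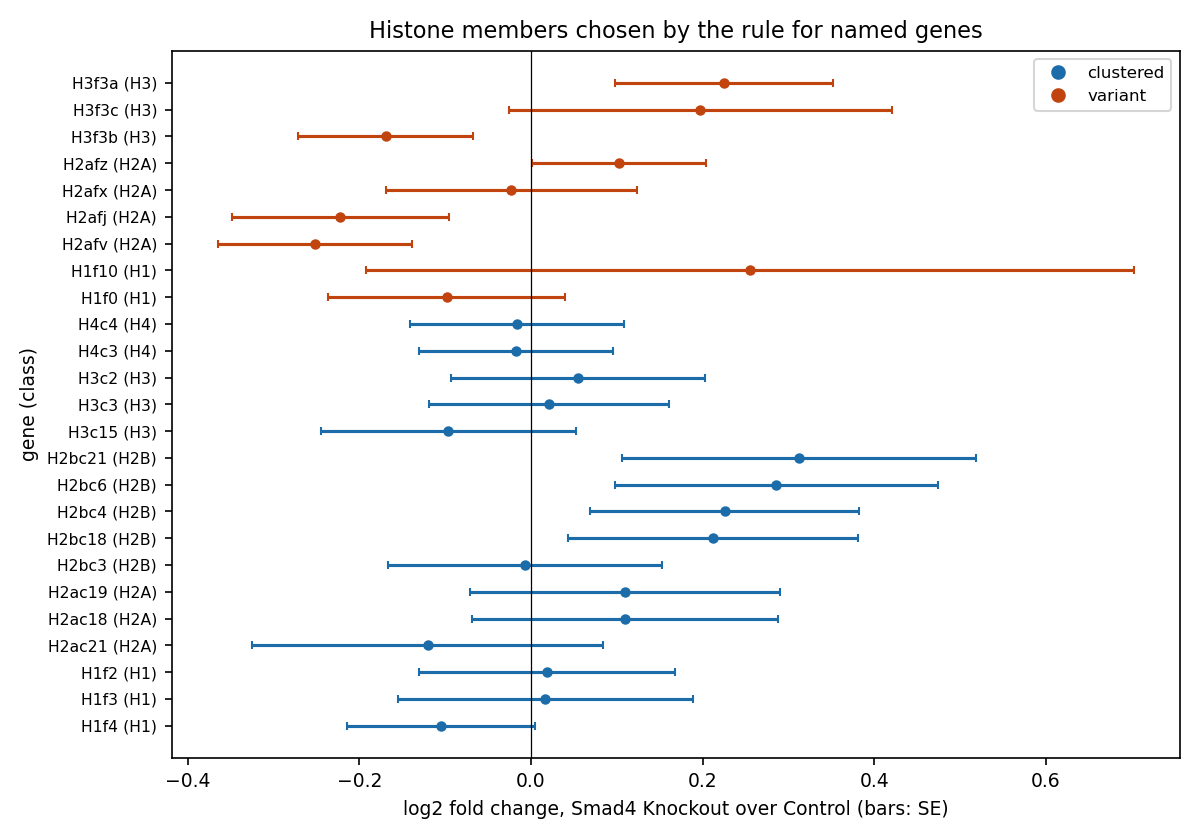
Log2 fold change of Smad4 Knockout over Control (horizontal axis, points) with its SE (bars) for the 25 members chosen by the naming rule, clustered in blue and variant in red. The points lie between -0.25 and 0.31, with H2bc genes at the right among the clustered and H2afv and H2afj at the left among the variants, and none passed the test.

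The clusters also hold genes known from the testis. H2ac1 was near the floor, with 32 and 7 counts in the controls against 24 and 1 in the knockouts. H2bc1 was counted at a low level in every library, with 332 and 370 counts in the controls against 303 and 398 in the knockouts, and 72.6% of its windows were private to it. The germ-line markers given above were at or near 0 in the same libraries.

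Of the genes that process histone mRNA, 29 were tested, 0 were called, 12 had a fold change above 0 and the median was -0.02. Slbp, the stem-loop binding protein, stood at 146 and 123 CPM in the controls and 138 and 139 CPM in the knockouts (0.04, SE 0.12). Npat, the coactivator of histone transcription, stood at 74.5 and 74.1 CPM in the controls and 81.1 and 73.6 CPM in the knockouts (0.06, SE 0.10). Neither had the commonest library order of the clustered genes, though Slbp was lowest in Control 2, as were 49 of 64 clustered members. The smallest p downward belonged to Fip1l1, a polyadenylation factor (-0.32, SE 0.12; edgeR adjusted p = 0.75), and to Srrt, a partner of the cap-binding complex (-0.20, SE 0.10). Upward they were Cstf2t (0.18, SE 0.10) and the uridylyltransferase Tut4 (0.21, SE 0.18).

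Of 31 histone chaperone genes, 0 were called, 13 had a fold change above 0 and the median was -0.03. Chaf1a, the large subunit of CAF-1, which deposits H3 and H4 behind the replication fork, stood at 66.9 and 74.3 CPM in the controls and 61.9 and 57.3 CPM in the knockouts (-0.24, SE 0.11; edgeR adjusted p = 0.82). Rbbp7, a histone-binding subunit, was at -0.16 (SE 0.10). Asf1b, a chaperone of H3 and H4, was at 0.22 (SE 0.14), and Cdan1, which binds ASF1, at 0.31 (SE 0.20).

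Among 50 S phase genes 0 were called, 33 had a fold change above 0 and the median was 0.06; 27 of them were highest in Smad4 Knockout 2 and 28 lowest in Control 2, against 29.1% and 28.9% of all genes tested. Cyclin E2 (Ccne2) was at 0.34 (SE 0.14; edgeR adjusted p = 0.79) and the helicase subunit Mcm5 at 0.28 (SE 0.11), whereas the replication genes Gins1 and Pola2 were at -0.19 (SE 0.12) and -0.18 (SE 0.10). Of 26 G2 and mitosis genes 0 were called, 22 were above 0 and the median was 0.09. Their sum was 5011 and 4846 CPM in the controls and 5208 and 5342 CPM in the knockouts, so here both knockout libraries lay above both controls. Ccnb1 (cyclin B1) was at 0.28 (SE 0.11; edgeR adjusted p = 0.75) and Cenpf at 0.26 (SE 0.11), against -0.05 for both Ube2c (SE 0.11) and Birc5 (SE 0.13).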

How the data were processed

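Total RNA of 4 libraries was read from the tables the authors deposited. The deposited values are estimated counts of reads (whole numbers, so no rounding was needed), TPM and FPKM per gene, per the file headers, and FPKM was not used here. The mm10 build, StringTie 2.1.3b, HISAT2 2.1.0, Trimmomatic and bcl2fastq 2.20.0 are listed in the submitters' processing notes. The counting step, its strand setting and the handling of reads with several matches were not given in the sources used here. Control 2's column carries its title with an added 2, and 1 column of another sample was left out. Groups follow the genotype label.

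The members and gene lists were chosen with earlier results of these data known. Counts were tested with edgeR 4.0.16 in R 4.3.3 (quasi-likelihood F-test, TMM, filterByExpr with its minimum count of 10, genotype as the only term, Benjamini-Hochberg over 18115 genes, threshold 0.05), after a test on simulated data. A common dispersion of 0.068 corresponds to a coefficient of variation of 26.1%. Depth was 85649781 to 99845702 counts. Alternatives used DESeq2 1.42.0, limma 3.58.1 on log2(TPM + 1), other filters and scalings, and each library left out. Named were, per class and type, the 2 members with the highest mean TPM; per type, the 3 with the smallest p in each direction; per list, the 2 with the smallest p in each direction; and Slbp, Npat and Smad4. Likeness of other genes to the clustered sum was not reported, since 4 libraries are too few for a correlation. Positions are 1-based, from RefSeq GRCm38.p6, which matched all 80 members; transcripts are GENCODE models of GRCm38 for 79 of them.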

Additional observations from a re-analysis of the deposited data

How the results depend on the processing

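No histone member was called under any alternative run, and the smallest adjusted p over the 25 named members was 0.54. Of these members 10 kept 1 sign throughout. The clustered median stayed between 0.11 and 0.16 under the other normalizations, filters and tests and most member choices. It was 0.10 over the 43 tested clustered members with under 80% private windows. When 1 library was left out, the clustered median ran from -0.05 to 0.30 and the summed clustered fold change from -0.07 to 0.29. Calls over all genes rose from 0 to 127 with DESeq2 and ran from 0 to 92 when 1 library was left out. The variant median was -0.10 over the 7 members with a mean of at least 5 CPM and -0.10 over the 7 with at least 80% private windows, an alternative chosen after seeing the data, and ran from -0.11 to 0.10 without 1 library, its summed counts from -0.12 to 0.076. On log2(TPM + 1) the list medians were 0.013 for histone mRNA processing and 0.031 for chaperones. Without 1 library the medians ran from -0.079 to 0.034 for mRNA processing, -0.028 to 0.016 for chaperones, -0.019 to 0.091 for S phase genes and 0.014 to 0.14 for G2 and mitosis genes. The cause was not tested. No paired analysis was possible because the labels give no replicate numbers, and those used only name the libraries. Depth bears most on H1f6 and H2ac1, with at most 32 counts in a library.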

Other observations

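Some histone genes fall outside the naming used for the members. H2c8, a histone gene at the level of the clustered ones, stood at 1407 and 1207 TPM in the controls and 1250 and 1316 TPM in the knockouts (log2 fold change -0.06, SE 0.14). H2aw stood at 361 and 307 TPM in the controls and 296 and 370 TPM in the knockouts (-0.04, SE 0.18). Macroh2a1, which encodes a histone H2A with a large macrodomain, stood at 149 and 140 TPM in the controls and 144 and 146 TPM in the knockouts (-0.03, SE 0.11), while Macroh2a2 was at most 0.471 TPM. Cenpa, the centromeric H3 variant, stood at 86.0 and 85.5 CPM in the controls and 84.9 and 82.7 CPM in the knockouts (-0.03, SE 0.10). Hils1, a spermatid linker gene, had 0 counts in every library. None of those tested was called by edgeR.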
